A study of Mus musculus with 20 samples.

Results

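The comparison described here sets C2C12 cells given BMP4 at 300 ng/ml (2 arrays) against all control cells of the same series (5 arrays, 2 of untreated cells and 3 of cells given methanol), 7 of the 20 arrays in all. The arrays were chosen by their titles, and the 2 control groups were pooled. C2C12 is an established mouse myoblast line. Wells of every group were seeded a day ahead in serum-containing medium, which was then replaced by fresh medium holding the agent. BMP4 was the recombinant protein, and methanol, which the protocol lists beside the compounds, was taken as their vehicle. How long the cells were treated is not given here, nor whether replicate arrays stem from different cultures. The p-values therefore cover the spread between arrays as labelled, which may be technical only. Total RNA was measured on Affymetrix mouse gene arrays, and values are log2 signals, on which a difference of 1 is a doubling. Replicate 1 of BMP4 300 ng/ml carried the Affyexpress label, while replicate 2 and all 5 controls carried the standard label. Many genes are therefore given for each array, and the count of called genes also for replicate 2. List counts, list medians and the remaining genes are given over both arrays. The series was designed to set 3 compounds beside BMP4 as activators of BMP signalling.

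BMP4 is a secreted ligand of the TGF-beta superfamily that binds paired type I and type II serine/threonine kinase receptors. The receptors phosphorylate SMAD1, SMAD5 and SMAD9 (also called SMAD8), which enter the nucleus with SMAD4 and switch on target genes, among them the Id genes and the inhibitory SMADs that feed back on the pathway. In C2C12 cells BMPs are known to block the formation of muscle fibres and to bring on osteoblast genes such as alkaline phosphatase.

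The label of the cells was checked against markers of myoblasts, whose signals in the controls were 10.43 to 10.69 for Myod1, 9.15 to 9.46 for Myf5, 11.48 to 11.69 for Des, 9.95 to 10.08 for Cdh15, 11.67 to 11.79 for Itga7 and 10.22 to 10.31 for Cdon. All 6 were lowered with BMP4, against 10.5% of all genes. Signals of different probe sets cannot be set against each other, and Sox9, a cartilage marker, gave 9.86 to 9.99 in the same controls, so these values describe the cells without settling their type. Of the genes of muscle differentiation, Myog gave 10.69 to 11.22 in the controls and Acta1 11.73 to 12.08, and the falls given below are measured from these signals. Of 9 endothelial markers none passed the test in either direction, and of 9 macrophage markers only Csf1r did (11.1%). Over all genes 19.6% passed in either direction. The mean signal over the endothelial markers was 4.17 to 4.34 with BMP4 and 4.07 to 4.32 in the controls, and over the macrophage markers 4.59 to 4.62 with BMP4 and 4.37 to 4.45 in the controls. In bulk RNA, fewer cells of a kind and less RNA per cell cannot be told apart.

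BMP4 at 300 ng/ml changed 4344 genes at a Benjamini-Hochberg adjusted p under 0.05 in limma. Of all genes, 2007 were raised (9.05%) and 2337 lowered (10.5%). Changes of at least 1 on the log2 scale numbered 409 raised (1.84%) and 534 lowered (2.41%). Changes of at least 4 numbered 14 raised and 22 lowered. The 15 largest rises included Sp7, Panx3, Alpl and Omd of bone and Fmod, Prg4 and Aspn of fibrous matrix, but also the keratins Krt14 and Krt16, the fatty acid carriers Fabp4 and Fabp7 (4.48) and Bpifb1 (4.45), a secreted protein of mucosal surfaces. The 15 largest falls were mostly genes of the muscle fibre, beside the neurofilament gene Nefl. Among them, Tmem182, a membrane protein of muscle, gave 5.41 and 4.91 with BMP4, against 9.87 to 10.45 in the controls (-5.02 ± 0.16), Pdlim3, a protein of the Z disc, 6.21 and 6.55 with BMP4, against 11.23 to 11.44 in the controls (-4.96 ± 0.10), and Ano5 changed by -4.65.

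Agreement of the arrays in called genes is a description, since both arrays entered the calls. Of the 2007 raised genes, 1996 (9% of all genes) had both BMP4 arrays above the highest of the 5 controls, and of the 2337 lowered genes 2323 (10.5%) had both below the lowest. Whatever the test said, both arrays lay above all controls in 3542 genes (16%), both below in 3583 (16.2%), and on opposite sides in 513 (2.31%). The titles carry unbroken running numbers, in which the treatments start over with an untreated array at 18. The numbers were divided there, into 10 to 17 and 18 to 29, for this comparison, and no label names these 2 runs as batches. When replicate 1 was set against the 2 controls of the first run and replicate 2 against the 3 controls of the second, the 2 differences shared no array. They correlated at r = 0.854 across the 22180 genes, which are not independent replicates, and had the same sign in 66.7% of all genes and in all 2007 raised and 2337 lowered genes. The median rise of the raised genes was 0.61 in replicate 1 and 0.59 in replicate 2, and the median change of the lowered genes -0.61 in replicate 1 and -0.58 in replicate 2. Across all probe sets the 2 BMP4 arrays correlated at 0.989 with each other and at 0.967 to 0.974 with the controls, while the controls correlated at 0.979 to 0.991 among themselves.

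**Figure D1:**
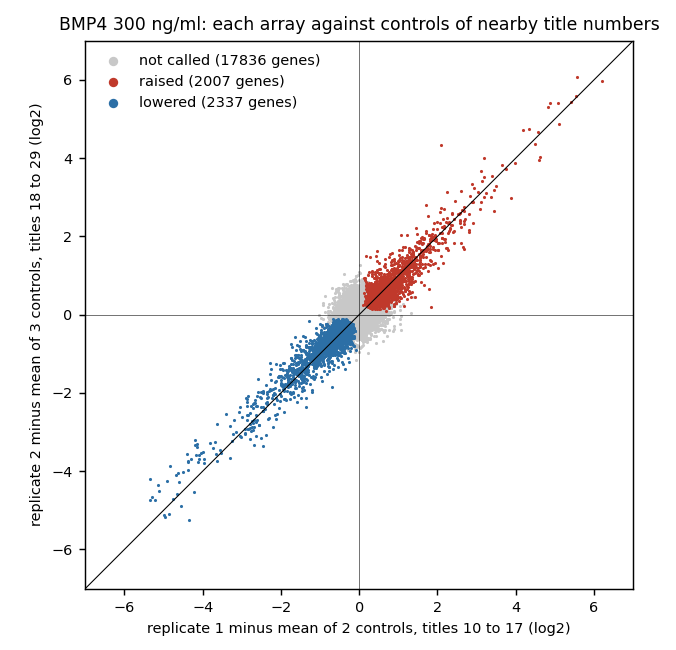
Each point is 1 of the 22180 genes. The horizontal axis gives the log2 difference of BMP4 300 ng/ml replicate 1 (Affyexpress label) from the mean of the 2 controls with title numbers 10 to 17, the vertical axis that of replicate 2 from the 3 controls with title numbers 18 to 29. Genes called in the comparison of all 7 arrays are red (2007 raised) or blue (2337 lowered), and they lie along the diagonal at the upper right and lower left.

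The 3 arrays of compound 942 carried the Affyexpress label too, without BMP4, each at 1 dose of the compound. No control carried that label, so label and compound cannot be told apart in these 3 arrays. Set against the same 5 controls, the 409 genes raised by at least 1 had a median difference of -0.01 in them and the 534 genes lowered by at least 1 a median of -0.10, and 1 and 0 of these genes moved by at least 1 the same way. Replicate 2 alone, with the standard label, gave 1380 raised and 1653 lowered genes against the 5 controls. The 2 BMP4 arrays differed by at least 1 in 18 genes, of which 6 were higher in replicate 1 and 12 in replicate 2. The largest such gap was in Odam, which gave 4.97 and 7.24 with BMP4, against 2.79 to 2.99 in the controls, and was raised on both arrays; its rise was 2.07 without replicate 2, and it was picked for this gap. The 5 genes with arrays on opposite sides of the controls and the largest gaps (Gm5154, 1700010D01Rik, Olfr1512, Vmn1r11 and Olfr727) were not called.

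Genes of BMP feedback rose in most cases. The gene lists used here were written with earlier results of these data known, so their shares are descriptions. Of 27 measured target and feedback genes, 17 rose (63%, against 9.05% of all genes) and 2 fell (7.41%, against 10.5%), with a median of 0.77 against 0.01 over all genes. Smad6, an inhibitory SMAD that holds back BMP receptors and their SMADs, had signals of 9.43 and 9.12 with BMP4, against 6.02 and 6.04 in untreated cells and 5.98, 5.81 and 5.94 with methanol. Both BMP4 arrays stood far above every control, a difference of 3.32 ± 0.11 (SE; adjusted p = 3.44e-10). Smad7, the other inhibitory SMAD, gave 8.81 and 8.91 with BMP4, against 6.87 to 7.02 in the controls (1.93 ± 0.09, adjusted p = 6.51e-09). Bambi, a receptor decoy without a kinase, rose by 1.91, and Smad9, which encodes a signalling SMAD of the pathway, by 1.80. Chrdl1, a secreted BMP binder, gave 7.33 and 6.51 with BMP4, against 4.29 to 4.60 in the controls, a rise of 2.50 with replicate 1 the higher.

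The Id genes encode helix-loop-helix proteins without a DNA-binding domain, which tie up the partners of MYOD1. Id3 gave 10.38 and 10.23 with BMP4, against 8.90 and 8.84 in untreated cells and 8.73, 8.79 and 8.91 with methanol, a rise of 1.47 ± 0.08 (adjusted p = 2.97e-08). Id1 gave 8.46 and 8.24 with BMP4, against 7.02 and 7.29 in untreated cells and 7.33, 7.20 and 7.37 with methanol (1.11 ± 0.11, adjusted p = 8.95e-06). The groups did not overlap for either gene. Id2 rose less, by 0.77 ± 0.15, with 10.28 and 10.30 with BMP4, against 9.09 to 9.82 in the controls. With a labelling term the Id1 rise was 0.9996 ± 0.49 and its call was lost (adjusted p = 0.275); over the 18 alternatives the rise lay between 0.9996 and 1.22. The Id2 call was lost in 3 of the 18 alternatives, 1 of them the labelling term. The others were the fit of the controls with all BMP4 doses and that of all 20 arrays, which give the same difference. Over the 18 alternatives the Id2 rise lay between 0.65 and 0.95.

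Homeobox and helix-loop-helix regulators of the same list rose too. Dlx2 gave 9.83 and 9.79 with BMP4, against 6.83 to 6.97 in the controls (2.89 ± 0.08, adjusted p = 1.14e-10) and Dlx5, a homeobox regulator of bone formation, 6.37 and 6.18 with BMP4, against 3.47 to 3.82 in the controls (2.60 ± 0.15). Atoh8 rose by 1.72. The 2 members that fell encode secreted proteins that bind BMPs. Grem1, a BMP antagonist, gave 6.74 and 6.97 with BMP4, against 8.36 to 8.74 in the controls (-1.70 ± 0.12, adjusted p = 2.81e-07), and Bmper changed by -0.82.

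The sequences before and at the start of 2 of the raised genes are shown because they hold, in the window searched, letters of SMAD sites. The motifs searched were GTCTAGAC, a palindrome of SMAD boxes, and GGCGCC, a GC-rich palindrome, both of which read the same on either strand; capitals mark the matches. The promoters are those of RefSeq on build GRCm38.p6, from 250 bases before to 50 bases from the start, written 5′ to 3′ on the gene's strand.
Smad6, chr9:64022010-64022309, minus strand: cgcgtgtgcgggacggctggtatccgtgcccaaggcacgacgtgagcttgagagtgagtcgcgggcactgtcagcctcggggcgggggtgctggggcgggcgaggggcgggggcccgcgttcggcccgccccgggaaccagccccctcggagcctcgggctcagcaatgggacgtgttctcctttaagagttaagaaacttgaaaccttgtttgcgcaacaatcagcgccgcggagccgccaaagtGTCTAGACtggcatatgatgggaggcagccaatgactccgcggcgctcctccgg
Dlx2, chr2:71546705-71547004, minus strand: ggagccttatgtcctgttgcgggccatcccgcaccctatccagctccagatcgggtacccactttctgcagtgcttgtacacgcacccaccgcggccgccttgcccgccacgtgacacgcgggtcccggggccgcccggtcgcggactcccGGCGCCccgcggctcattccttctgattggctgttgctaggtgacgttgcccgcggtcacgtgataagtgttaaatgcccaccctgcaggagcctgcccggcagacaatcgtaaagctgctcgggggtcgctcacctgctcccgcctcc
Smad6 holds GTCTAGAC at position -4, where the start base is 1, and Dlx2 holds GGCGCC at position -99. GTCTAGAC stands in 0.213% of all 32851 promoters and in 0.562% of the 356 promoters of genes raised by at least 1, which is 2 promoters. Among the 513 promoters of genes lowered by at least 1 it stands in 0.39%, which is 2 promoters too. Over all called genes the order was the other way, with 0.0999% of the promoters of raised genes (2 promoters) and 0.509% of those of lowered genes (12 promoters). GGCGCC stands in 11.9% of all promoters, in 15.5% of those of the genes tested, in 22.2% of those of genes raised by at least 1 and in 16.4% of those of genes lowered by at least 1. Over all called genes it stands in 20% of the promoters of raised genes and in 20.7% of those of lowered genes, so neither motif set all raised genes above all lowered ones. These matches are letters in a window and were not tested as binding sites.

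The ligands, receptors and SMADs of the pathway changed in both directions. Of 27 ligands, receptors and SMADs, 6 rose (22.2%) and 7 fell (25.9%), against 9.05% and 10.5% of all genes, and their median was 0.06. The signalling SMAD genes Smad1, Smad5 and Smad4 and the type II receptor Bmpr2 did not pass the test, with differences of -0.13, 0.04, 0.06 and 0.08. Bmp5, a BMP ligand, gave 6.17 and 6.58 with BMP4, against 4.37 to 4.63 in the controls (1.89 ± 0.14, adjusted p = 4.92e-07). Inhba, which encodes a subunit of activin, rose by 1.29, and Inhbb, the other beta subunit measured here, changed by -1.05. Smurf2, a ubiquitin ligase that acts on SMADs and receptors, rose by 0.97, Smad3, a SMAD of the TGF-beta branch, changed by -0.85, and Rgmb, a BMP co-receptor, by -1.19. The Bmp4 gene itself gave 8.16 and 7.80 with BMP4, against 7.10 to 7.73 in the controls (0.64 ± 0.16, adjusted p = 0.0112). Its call was lost without replicate 1 and with a labelling term, both of which give replicate 2 minus the controls (0.45).

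Osteoblast genes held the largest rises among the 22180 genes, in Sp7 and Panx3. Of 20 measured, 12 rose (60% of the list, against 9.05% of all genes) and 2 fell (10%, against 10.5% of all genes), with a median of 0.73. Sp7 (osterix), a zinc finger factor required for osteoblasts, had signals of 10.43 and 10.40 with BMP4, against 4.06 and 4.37 in untreated cells and 4.40, 4.45 and 4.43 with methanol. The BMP4 arrays nearly coincided and lay far above the controls (6.07 ± 0.12, adjusted p = 9.16e-12). Alpl, the alkaline phosphatase of bone and liver that frees phosphate for mineral, had 10.33 and 10.33 with BMP4, against 4.72 and 4.81 in untreated cells and 5.10, 5.18 and 4.68 with methanol (5.43 ± 0.14, adjusted p = 6.47e-11), and its second probe set rose by 2.72. Panx3, a channel protein of skeletal cells, had 9.95 and 10.27 with BMP4, against 4.58 and 4.14 in untreated cells and 4.20, 4.28 and 4.13 with methanol (5.84 ± 0.14, adjusted p = 3.82e-11).

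Later and secreted genes of bone moved less evenly. Omd (osteomodulin), a small proteoglycan of mineralised matrix, gave 10.31 and 10.99 with BMP4, against 5.40 to 5.81 in the controls, a rise of 5.04 ± 0.17. Bglap, which encodes osteocalcin, gave 7.46 and 8.08 with BMP4, against 4.82 to 5.30 in the controls (2.72 ± 0.17, adjusted p = 9.27e-08), with replicate 2 the higher; near-identical copies of this gene exist in the mouse, so its signal may be shared with them. Pth1r, the parathyroid hormone receptor, rose by 2.31, Tnfrsf11b, which encodes the osteoclast inhibitor osteoprotegerin, by 2.27, and Col1a1 and Col1a2, the chains of collagen I, by 2.06 and 1.96. Ibsp (bone sialoprotein), a mineralisation gene, stayed at 3.80 and 3.84 with BMP4, against 3.71 to 4.22 in the controls (-0.17 ± 0.15, adjusted p = 0.581), with overlapping groups. Dmp1, a matrix protein of osteocytes, fell: it gave 3.82 and 4.09 with BMP4, against 4.79 to 4.98 in the controls (-0.89 ± 0.13). Runx2, Spp1 and Msx1 were not analysed here.

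**Figure D2:**
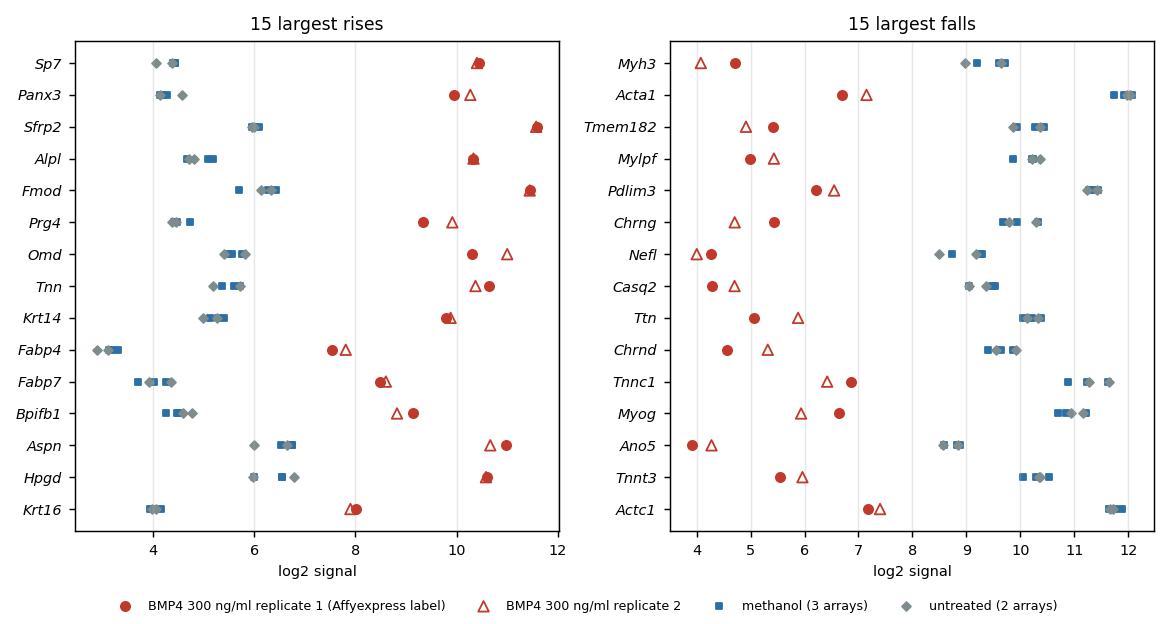
Log2 signals of the 15 genes with the largest rises and the 15 with the largest falls, 1 row per gene, for both BMP4 300 ng/ml arrays (red), the methanol arrays (blue squares) and the untreated arrays (grey diamonds). The genes were picked among called genes with both BMP4 arrays on the same side of all 5 controls. Every row therefore shows this by choice. The differences were 3.92 (Krt16) to 6.07 (Sp7) among the rises and -4.44 (Actc1) to -5.03 (Myh3) among the falls.

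Genes of fibrous matrix rose beside those of bone. In the list of tendon and fibrous matrix genes 10 of 19 rose (52.6%, against 9.05% of all genes), with a median of 0.35, and 2 fell, a share of 10.5% that equals that of all genes. Fmod (fibromodulin), a proteoglycan that binds collagen fibrils, gave 11.45 and 11.44 with BMP4, against 6.34 and 6.13 in untreated cells and 6.42, 5.70 and 6.28 with methanol (5.27 ± 0.16, adjusted p = 1.29e-10). Prg4 (lubricin), the lubricant of joint surfaces, gave 9.34 and 9.91 with BMP4, against 4.37 to 4.73 in the controls (5.13 ± 0.15), and Aspn (asporin) gave 10.98 and 10.66 with BMP4, against 5.99 to 6.75 in the controls (4.29 ± 0.18). Every BMP4 array of these genes lay above every control. Col12a1, a collagen that sits on fibrils, rose by 2.94, Lum (lumican) by 2.91 and Dcn (decorin) by 1.52. Scx (scleraxis), the defining transcription factor of tendon cells, went the other way and gave 7.45 and 7.53 with BMP4, against 9.67 to 10.16 in the controls (-2.43 ± 0.12, adjusted p = 1.19e-08). Tnmd, a tendon marker downstream of it, did not pass the test (0.05). Tnn (tenascin W), a matrix glycoprotein found around bone and outside the lists, gave 10.64 and 10.37 with BMP4, against 5.19 to 5.73 in the controls and rose by 4.99.

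The cartilage list moved little. Of 20 chondrocyte genes 5 rose (25%) and 1 fell (5%), against 9.05% and 10.5% of all genes, and the median was 0.09. Col2a1, the main collagen of cartilage, gave 8.17 and 8.01 with BMP4, against 6.15 and 5.87 in untreated cells and 5.95, 5.68 and 5.78 with methanol (2.20 ± 0.13, adjusted p = 5.09e-08). Col11a1 rose by 0.95. Col10a1, a collagen of hypertrophic cartilage, had a difference of 0.72 whose call was lost in 4 of the 18 alternatives. These were untreated cells alone, a labelling term and leaving out either BMP4 array, and the labelling term repeats the difference without replicate 1. Acan and Matn1, which mark chondrocytes, did not pass the test (0.30 and -0.11). Sox9, the cartilage transcription factor, gave 9.75 and 9.57 with BMP4, against 9.86 to 9.99 in the controls, a small fall (-0.27 ± 0.08, adjusted p = 0.0228) that 8 of the 18 alternatives did not call.

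Among regulators of the muscle lineage 12 of 20 fell (60%, against 10.5% of all genes) and 3 rose (15%, against 9.05% of all genes), with a median of -0.53. Myog (myogenin), which drives myoblasts into differentiation, had signals of 6.64 and 5.94 with BMP4, against 11.17 and 10.94 in untreated cells and 11.22, 10.85 and 10.69 with methanol. Both BMP4 arrays lay far below every control (-4.69 ± 0.17, adjusted p = 6.86e-10). Myod1, the factor that commits cells to muscle, gave 8.98 and 8.95 with BMP4, against 10.57 and 10.43 in untreated cells and 10.69, 10.46 and 10.48 with methanol (-1.56 ± 0.08, adjusted p = 1.69e-08). Its fall was smaller, and the groups again did not overlap.

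The remaining regulators ranged widely, up to a difference of 1.12, and those named here fell. Rbm24 (an RNA-binding protein of muscle), Vgll2 (a cofactor of TEAD factors) and Heyl (a helix-loop-helix repressor) changed by -3.90, -3.09 and -3.05. Mef2a changed by -1.17, and Mef2c by -0.997 (-0.58 with its probe sets averaged). Genes of the undifferentiated myoblast had smaller differences. Myf5 gave 8.74 and 8.70 with BMP4, against 9.15 to 9.46 in the controls (-0.57 ± 0.09, adjusted p = 0.00062) and Pax7, the satellite cell factor, 7.29 and 7.41 with BMP4, against 7.75 to 8.04 in the controls (-0.50 ± 0.10, adjusted p = 0.00253).

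Fusion and adhesion genes of myoblasts fell in 11 of 20 cases (55%, against 10.5% of all genes) and rose in 3 (15%, against 9.05%), with a median of -0.34. Mymk (myomaker), a membrane protein needed for myoblast fusion, had 8.05 and 8.34 with BMP4, against 12.14 and 12.02 in untreated cells and 12.18, 12.12 and 11.94 with methanol (-3.88 ± 0.09, adjusted p = 2.28e-11). Mymx, its partner in fusion, gave 5.41 and 5.18 with BMP4, against 6.47 to 7.26 in the controls (-1.57 ± 0.19). Cdh15 (M-cadherin) changed by -3.48 and Itga7, the laminin receptor subunit of muscle, by -2.18. Boc, a surface receptor that helps differentiation in myoblasts, was the largest of the 3 rises. It gave 8.82 and 8.998 with BMP4, against 6.73 to 7.01 in the controls (2.06 ± 0.11, adjusted p = 2.67e-08), while Cdon, its relative, changed by -0.38.

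The sarcomere list fell most: 36 of 47 genes were lowered (76.6%, against 10.5% of all genes) and 0 raised, with a median of -2.13, against 0.01 over all genes. Myh3, the embryonic myosin heavy chain, had 4.72 and 4.08 with BMP4, against 9.63 and 8.98 in untreated cells and 9.71, 9.60 and 9.19 with methanol (-5.03 ± 0.20, adjusted p = 1.64e-09). Acta1, the skeletal alpha-actin, had 6.70 and 7.15 with BMP4, against 12.03 and 11.97 in untreated cells and 12.08, 11.92 and 11.73 with methanol (-5.02 ± 0.12, adjusted p = 2.28e-11). Mylpf, a regulatory light chain of fast myosin, had 4.99 and 5.43 with BMP4, against 10.37 and 10.22 in untreated cells and 10.22, 10.23 and 9.86 with methanol (-4.97 ± 0.14). In all of them the lowest control lay more than 4 log2 units above the higher BMP4 array. Ttn (titin), Neb (nebulin) and the troponin genes Tnnt2, Tnnt3 and Tnnc1 changed by -4.75, -4.33, -4.16, -4.56 and -4.69. The 11 sarcomere genes not called ranged from -0.31 (Myoz1) to 0.29 (Nebl) and included Myh2, Myh6, Myl2 and Myl3.

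Genes of excitation and calcium handling fell in 20 of 26 cases (76.9%, against 10.5% of all genes), with a median of -1.47, and 1 rose (3.85%, against 9.05%). Chrng, the fetal gamma subunit of the muscle acetylcholine receptor, had 5.43 and 4.71 with BMP4, against 10.29 and 9.79 in untreated cells and 10.32, 9.94 and 9.68 with methanol (-4.94 ± 0.20, adjusted p = 1.62e-09). Chrnd and Chrnb1, further subunits, changed by -4.73 and -3.74. Casq2, a calcium buffer of the sarcoplasmic reticulum, gave 4.29 and 4.70 with BMP4, against 9.05 to 9.54 in the controls (-4.80 ± 0.15), and Srl (sarcalumenin) changed by -4.03. Atp2a1, the calcium pump of fast muscle, changed by -3.73, and Ryr1, the calcium release channel, by -3.52 (-1.91 with its 2 probe sets averaged). Musk, the kinase that gathers acetylcholine receptors, was the member that rose (0.43).

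The promoters of 2 lowered muscle genes are shown for the E-box CAGCTG, a palindrome of the kind that MYOD1 and myogenin are known to bind. They have the same source, length and orientation as those above, and capitals mark each CAGCTG.
Chrng, chr1:87205561-87205860, plus strand: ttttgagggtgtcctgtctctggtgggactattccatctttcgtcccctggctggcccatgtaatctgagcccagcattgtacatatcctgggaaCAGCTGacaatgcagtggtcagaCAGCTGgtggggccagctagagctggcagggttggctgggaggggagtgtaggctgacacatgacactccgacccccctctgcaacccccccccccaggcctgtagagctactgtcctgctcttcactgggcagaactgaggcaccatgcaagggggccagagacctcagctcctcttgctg
Mylpf, chr7:127211358-127211657, plus strand: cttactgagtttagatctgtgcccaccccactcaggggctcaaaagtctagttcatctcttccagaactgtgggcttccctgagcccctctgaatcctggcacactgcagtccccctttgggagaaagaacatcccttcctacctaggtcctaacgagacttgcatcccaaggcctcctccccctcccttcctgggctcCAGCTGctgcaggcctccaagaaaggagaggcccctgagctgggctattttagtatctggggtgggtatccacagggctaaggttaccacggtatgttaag
Chrng holds CAGCTG 2 times and Mylpf 1 time, at position -51. The letters stand in 16.3% of all promoters, in 16.2% of those of genes tested, in 25.1% of the 513 promoters of genes lowered by at least 1 and in 17.7% of those of genes raised by at least 1, and over all called genes in 19.9% for the lowered and 16.3% for the raised. The Myog promoter window held none of the 3 motifs.

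**Figure D3:**
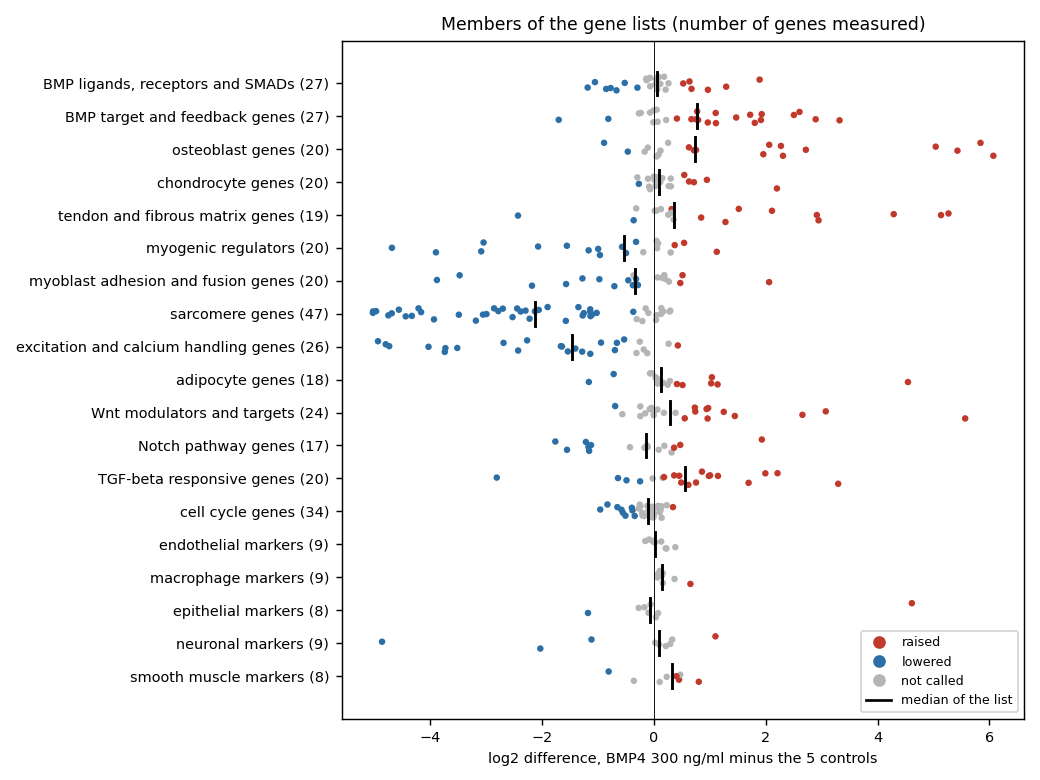
Log2 difference of BMP4 300 ng/ml minus the 5 controls for each measured member of the 19 gene lists (number of genes in parentheses), with red for raised, blue for lowered, grey for not called and a black bar for the list's median. The sarcomere list (median -2.13) lies furthest to the left, and the lists of BMP target (0.77) and osteoblast genes (0.73) furthest to the right.

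Some microRNA genes of muscle fell as well. The miRNA genes named were chosen after their values were seen. The table held 478 miRNA genes, of which 30 were raised and 17 lowered, so that 9.83% were called in either direction, against 19.6% of all genes. Whether their probe sets measured the hairpin or a longer primary transcript was not tested, and no level of a mature arm is given. The mature sequences printed here, from RefSeq, belong to the genes described next, and capitals mark the seed, bases 2 to 8, with which a miRNA pairs to its targets.
mmu-miR-133b-3p: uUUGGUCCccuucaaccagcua
mmu-miR-206-3p: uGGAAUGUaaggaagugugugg
mmu-miR-362-5p: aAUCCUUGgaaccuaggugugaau
mmu-miR-532-3p: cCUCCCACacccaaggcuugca
mmu-miR-181b-5p: aACAUUCAuugcugucgguggguu
mmu-miR-140-3p: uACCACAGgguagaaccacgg
No 2 of these 6 share a seed. Mir133b, a muscle miRNA gene, had 4.15 and 4.79 with BMP4, against 8.62 and 8.12 in untreated cells and 8.49, 8.52 and 8.43 with methanol (-3.96 ± 0.16, adjusted p = 2.2e-09). Mir206, its neighbour on chromosome 1 and also a muscle miRNA, gave 2.88 and 1.95 with BMP4, against 3.07 to 4.10 in the controls (-1.30 ± 0.27, adjusted p = 0.00328), and lost the call without replicate 2, at -0.84 (adjusted p = 0.106). The muscle miRNA genes Mir1a-1, Mir133a-1 and Mir499 did not pass the test (-0.04, -0.13 and -0.04). Mir532 and Mir362, which lie within the span of Clcn5 on chromosome X, changed by -2.86 and -2.23, and Clcn5, a chloride-proton exchanger, by -2.81. Mir188, in the same span, did not pass the test (-0.26).

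Among the miRNA genes that rose, Mir181b-1 gave 7.41 and 7.35 with BMP4, against 4.69 to 5.40 in the controls (2.43 ± 0.17, adjusted p = 2.45e-07). Mir140, known as a cartilage miRNA, gave 5.49 and 6.31 with BMP4, against 4.55 to 4.86 in the controls (1.16 ± 0.19, adjusted p = 0.000569), with replicate 2 the higher; without replicate 2 its rise was 0.75.

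Other signalling lists gave mixed pictures. In the list of Wnt modulators and targets 11 of 24 rose (45.8%, against 9.05% of all genes) and 1 fell (4.17%, against 10.5%), with a median of 0.28. Sfrp2, a secreted Wnt modulator, gave 11.59 and 11.57 with BMP4, against 6.01 and 5.96 in untreated cells and 6.10, 6.03 and 5.97 with methanol (5.57 ± 0.09, adjusted p = 1.1e-12). Its second probe set rose by 0.88, and the gene's value was 3.22 with the probe sets averaged. Lgr6, a receptor for R-spondins, rose by 3.07, Nkd2, an inhibitor of Wnt signalling, by 2.66, and Notum, a lipase that inactivates Wnts, by 1.45 (0.75 with its probe sets averaged). The common Wnt targets Axin2, Lef1 and Lgr5 did not pass the test (-0.05, -0.24 and -0.003).

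Of 17 Notch genes 6 fell (35.3%, against 10.5% of all genes) and 3 rose (17.6%, against 9.05%), with a median of -0.13. The ligand gene Jag2 gave 6.70 and 6.74 with BMP4, against 8.36 to 8.61 in the controls (-1.76 ± 0.09), the receptor genes Notch1 and Notch3 changed by -1.55 and -1.16, and Hes1, a Notch target, by -1.12. Lfng, a glycosyltransferase that tunes Notch receptors, rose instead, with 10.21 and 10.07 with BMP4, against 8.13 to 8.31 in the controls (1.93 ± 0.08, adjusted p = 2.84e-09).

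The list of TGF-beta responsive genes had 14 of 20 raised (70%, against 9.05% of all genes) and 4 lowered (20%, against 10.5%), with a median of 0.55. Postn (periostin), a matrix protein, gave 10.85 and 10.96 with BMP4, against 7.27 to 7.997 in the controls (3.30 ± 0.16, adjusted p = 7.22e-09). Tgfbi rose by 2.21 with 8.37 and 7.31 on the 2 BMP4 arrays, a gap of more than 1. Cnn1, a smooth muscle calponin, rose by 1.99. Ankrd1, a stretch-responsive gene of muscle, changed by -2.81.

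Adipocyte genes rose in 6 of 18 cases (33.3%, against 9.05% of all genes) and fell in 2 (11.1%, near the 10.5% of all genes), with a median of 0.12. Fabp4, a fatty acid carrier of fat cells, gave 7.54 and 7.81 with BMP4, against 3.11 and 2.89 in untreated cells and 3.31, 3.13 and 3.20 with methanol (4.54 ± 0.14, adjusted p = 1.88e-10). Pparg, the master factor of fat cells, rose by 1.14, Cebpd by 1.04 and Lpl by 1.02, the last of which lost its call without BMP4 replicate 2 (adjusted p = 0.0737). Adipoq, Plin1 and Cebpa, which mark mature adipocytes, did not pass the test (-0.07, 0.25 and 0.08), and Cd36, a fatty acid transporter, changed by -1.16.

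Of 34 cell cycle genes 9 fell (26.5%, against 10.5% of all genes) and 1 rose (2.94%, against 9.05%), with a median of -0.10. Ccnd1 (cyclin D1) had 8.67 and 8.49 with BMP4, against 9.41 and 9.49 in untreated cells and 9.49, 9.63 and 9.67 with methanol (-0.96 ± 0.09, adjusted p = 4.65e-06). Ccnd2 and Ccnd3 changed by -0.58 and -0.83. Mcm3 and Mcm5, subunits of the replicative helicase, changed by -0.55 and -0.51, and the Mcm5 call was lost without BMP4 replicate 2, where the difference was -0.29 (adjusted p = 0.092). Cdkn1a, the p21 inhibitor that rises when myoblasts leave the cycle, fell too, with 11.65 and 11.60 with BMP4, against 12.23 to 12.32 in the controls (-0.65 ± 0.06, adjusted p = 2.07e-06). Mki67, Top2a and Ccna2 did not pass the test (0.07, -0.10 and -0.03).

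Markers of other cell types gave no common direction. Krt14, a keratin of basal epithelium, gave 9.78 and 9.88 with BMP4, against 4.99 to 5.40 in the controls (4.61 ± 0.12, adjusted p = 6.35e-11), while Epcam, Cdh1 and Krt8, the broader epithelial markers, did not pass the test (-0.27, -0.17 and 0.07), and Krt19 changed by -1.18. Nefl, the light neurofilament, gave 4.26 and 4.003 with BMP4, against 8.50 and 9.18 in untreated cells and 8.74, 9.28 and 9.28 with methanol (-4.86 ± 0.19, adjusted p = 1.59e-09), Map2 and Nefm changed by -2.03 and -1.12, and Stmn2 rose by 1.10. Of 8 smooth muscle markers 3 rose, 37.5% against 9.05% of all genes (Myocd by 0.80, Smtn by 0.45 and Actg2 by 0.40) and Des changed by -0.81. Actg2 lost its call without BMP4 replicate 2 (adjusted p = 0.105). Csf1r, a receptor of macrophages, rose by 0.65 and lost its call in 3 of the 18 alternatives. These were a labelling term and leaving out either BMP4 array, and the labelling term repeats the difference without replicate 1.

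The next lower dose, 100 ng/ml with 2 arrays, was compared with 300 ng/ml directly, in a fit of 11 arrays. Only 3 genes were raised at 300 over 100 ng/ml (0.0135%) and 0 lowered (0%) by limma after adjustment, while 422 raised and 661 lowered genes had an unadjusted p under 0.05. Without the trend on signal the counts were 2 and 0. Adgrf4, an adhesion G protein-coupled receptor, gave 6.17 and 6.25 at the higher dose, against 4.62 and 3.83 at the lower (1.98 ± 0.24, adjusted p = 0.00942). Gja3, a connexin, gave 7.19 and 7.58 at 300 ng/ml, against 6.10 and 5.63 at 100 ng/ml (1.52 ± 0.18, adjusted p = 0.00942). Ccdc74a gave 7.58 and 7.64 at 300 ng/ml, against 6.47 and 6.09 at 100 ng/ml (1.33 ± 0.19, adjusted p = 0.0355). In these 3 genes both arrays at 300 ng/ml lay above both at 100 ng/ml. These counts rested on single arrays. Without replicate 1 at 100 ng/ml the counts were 112 raised and 227 lowered, and without replicate 2 at 100 ng/ml or replicate 2 at 300 ng/ml they were 0 and 0.

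Each dose was also set against the same 5 controls, which all of these differences share. The median of the sarcomere list at 10, 100 and 300 ng/ml was -0.39, -2.15 and -2.13. That of the osteoblast list was 0.09, 0.71 and 0.73 in the same order of doses. That of the cell cycle list was 0.23, 0.18 and -0.10. Sp7 differed from the controls by 0.86 at 10, 4.61 at 100 and 6.07 at 300 ng/ml, and Alpl by 0.23, 3.46 and 5.43. Sfrp2 was already at 3.13 at 10 ng/ml and stood at 5.43 and 5.57 at the higher doses. Nefl was at -3.76, -4.99 and -4.86, and Myog at 0.11, -3.47 and -4.69.

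Phex stood lower at 300 ng/ml than at the smaller doses, though the direct test against 100 ng/ml did not call it (adjusted p = 0.886). Phex, an endopeptidase gene of osteoblasts and osteocytes, differed from the controls by 1.82 at 10, 1.54 at 100 and 0.71 at 300 ng/ml. Its 300 ng/ml call was lost in 4 of the 18 alternatives, among them the fits of 11 and of all 20 arrays, which give the same difference. Id1 gave 9.04 and 7.04 at 10, 8.71 and 7.80 at 100 and 8.46 and 8.24 at 300 ng/ml, so the 2 arrays were furthest apart at the lowest dose.

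**Figure D4:**
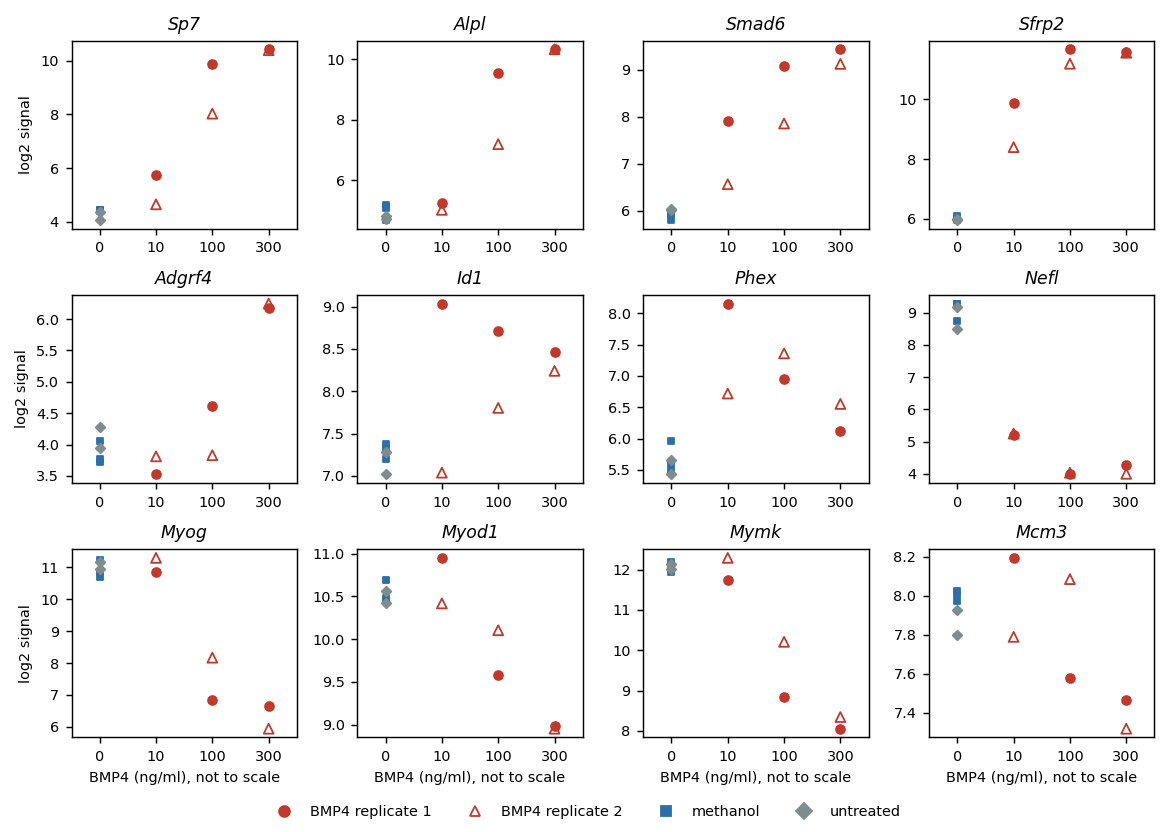
Log2 signals of 12 genes in the controls (dose 0; methanol as blue squares, untreated as grey diamonds) and at 10, 100 and 300 ng/ml BMP4 (red, circle for replicate 1 and triangle for replicate 2), each panel with its own vertical range. The arrays at 300 ng/ml lie close together in Sp7 (10.43 and 10.40) and Alpl (10.33 and 10.33), where those at 100 ng/ml are apart (9.87 and 8.03 in Sp7), and Adgrf4 rises at 300 ng/ml, while Nefl is already low at 10 ng/ml.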

How the data were processed

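Total RNA of 20 C2C12 samples was measured on Affymetrix mouse gene arrays. The authors deposited log2 signals, 1 per probe set and array, made with RMA in Partek 6.5 per the submitters' processing notes. Per the labels, some samples were labelled by the Affyexpress method and 3 by both methods for a batch correction; the sources used here do not say whether it was applied. Of 41345 probe sets, 23521 had 1 gene symbol, 1814 several (left out) and 16010 none. For the 1082 genes with more than 1 probe set the brightest on average stood for the gene, giving 22180 genes. Array medians of the 7 arrays lay between 4.96 and 5.05. The number of arrays limits the precision that can be stated, as do the unknown origin of the replicate arrays and the difference in label.

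The values were fitted in limma 3.58.1 (R 4.3.3) with 1 mean for BMP4 300 ng/ml and 1 for the 5 controls, moderated with a trend (5 residual degrees of freedom, median prior 7.35), and p-values were adjusted over all genes by Benjamini-Hochberg, with calls under 0.05. The difference between 300 and 100 ng/ml came from a fit of 11 arrays. The code was tested on simulated data. Members, the 19 lists (400 entries, 382 measured) and the tests were chosen with earlier results of these data known. Genes were named as the 15 largest rises and falls and up to 4 called members of each list. The largest rises and falls were taken among called genes with both BMP4 arrays on the same side of all 5 controls. Named too were a fixed set of BMP, bone and muscle genes, the 5 most discordant genes and those called between doses. Further called genes, and members named as not called, were chosen after their values were seen. Alternatives were other controls, arrays, terms, normalizations, filters and probe set rules, and leaving out each array. Promoters and miRNAs came from RefSeq tables of GRCm38.p6. No coordinates are given for probe sets, since no build was named for them.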

Additional observations from a re-analysis of the deposited data

Results flagged for a closer look

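In 8 of the named genes, of which 144 were called, 1 of the 5 control arrays lay far from the other 4. The distance was more than 0.71 of the whole range, which chance gives in about 1 in 20 such groups. The number of such genes is thus near that given by chance. Untreated replicate 1 was low in Sp7 (4.06, against 4.37 to 4.45) and in Ptgs2 (8.25, against 8.58 to 8.63), and high in Pax7 (8.04, against 7.75 to 7.82). Untreated replicate 2 was low in Inhbb (6.52, against 6.69 to 6.76) and in Smad3 (8.47, against 8.63 to 8.68). Methanol replicate 1 was low in Sema6d (5.31, against 5.81 to 5.97), methanol replicate 2 in Bmper (6.47, against 6.70 to 6.77) and methanol replicate 3 in Tnnt2 (11.4, against 11.6 to 11.7). In all 8 genes both BMP4 arrays lay on 1 side of all 5 controls. All 8 were called genes, however, and called genes nearly always show this (1996 raised out of 2007, 2323 lowered out of 2337). The position of the BMP4 arrays was thus close to given by the call and does not test the effect of the outlying control.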

How the results depend on the processing

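The counts of called genes kept within 1.5 times of 2007 raised and 2337 lowered in most of the 18 alternatives. These alternatives overlap. The fits of all 20 arrays and of the controls with all BMP4 doses gave the differences of the main fit. Each group had its own mean in these fits. Every compound dose had 1 array and so added nothing to the estimate of the spread. The differences with a labelling term were those of BMP4 replicate 2 minus the controls, as were those without BMP4 replicate 1. A labelling term gave 1152 raised and 1376 lowered, and untreated cells alone as the control gave 1427 lowered. Leaving out 1 array gave 1380 to 2083 raised and 1653 to 2500 lowered. Between 55.9% (labelling term) and 100% (run of title numbers as a term) of the 4344 calls were shared. No call changed direction in any alternative except 1 gene with probe sets averaged. Between 300 and 100 ng/ml, 0 genes were raised in the 4 arrays alone and 6 with a run term, 1 was lowered with a labelling term, and leaving out 1 array gave 0 to 112 raised and 0 to 227 lowered. Of 144 named genes called, all 144 kept their direction and 133 kept their call. Of the 38 counts of list members, 15 moved by over 1.5 times in some alternative. The 5 discordant genes were picked for having 1 BMP4 array above and the other below all controls. Leaving out 1 or the other BMP4 array therefore had to give opposite signs. With methanol alone Vmn1r11 was at -0.011 and Olfr727 at 0.088. Leaving out 1 array gave -0.42 to 0.59 for Vmn1r11, -0.52 to 0.48 for Olfr727 and -0.57 to 0.46 for Olfr1512. It gave -0.34 to 0.73 for 1700010D01Rik and -0.51 to 0.86 for Gm5154. None of the 5 genes was called in the fit of all 7 arrays. With a labelling term Gm5154 was at 0.86 and 1700010D01Rik at 0.73. Leaving out BMP4 replicate 1 gave the same values, since both settings give replicate 2 minus the controls. Why the 2 BMP4 arrays differ in these genes was not tested. No paired analysis was possible because the labels carry no replicate numbers; the fit with the run of title numbers as a term, a division that no label states, gave 2562 raised and 2965 lowered. The 2 BMP4 arrays differ in labelling method, so label and replicate cannot be told apart.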

Other observations

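The genes described here lie outside the lists and were, but for Krt16 and Hpgd, chosen after their values were seen. Krt16, a keratin, gave 8.003 and 7.90 with BMP4, against 3.95 to 4.16 in the controls (3.92 ± 0.12), Cdsn (corneodesmosin), an adhesion protein of the skin, 9.48 and 9.07 with BMP4, against 6.56 to 6.82 in the controls (2.60 ± 0.12), and Slurp1 8.31 and 8.61 with BMP4, against 5.82 to 6.42 in the controls (2.40 ± 0.15). Cldn1, a tight junction protein, rose by 2.19.

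Met, the receptor of hepatocyte growth factor, gave 5.46 and 5.87 with BMP4, against 8.09 to 8.44 in the controls (-2.64 ± 0.14, adjusted p = 1.64e-08), and Erbb3, a neuregulin receptor, 4.59 and 5.03 with BMP4, against 8.29 to 8.77 in the controls (-3.68 ± 0.15). Dusp4 and Dusp6, phosphatases that inactivate MAP kinases, changed by -2.69 and -2.66; the second probe set of Dusp6 changed by -0.06, and the value with both averaged was -1.36.

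Sema7a and Sema6a, semaphorins on the cell surface, changed by -3.58 and -3.26, while Sema6d and Plxna4, a plexin that takes part in semaphorin signalling, rose by 2.27 and 3.15. Gas6, a ligand of TAM receptors, gave 8.91 and 8.70 with BMP4, against 4.85 to 5.46 in the controls (3.78 ± 0.16), Edn1, which encodes endothelin 1, rose by 2.87 and Ptgs2 (cyclooxygenase 2) by 2.54. Hpgd, which breaks prostaglandins down, rose too, with 10.59 and 10.57 with BMP4, against 5.98 to 6.79 in the controls (4.21 ± 0.19, adjusted p = 5.64e-09).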
